A study of Mus musculus with 18 samples.

Results

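Transcripts of blood cells were followed in cultures of mouse dorsal root ganglion neurons, the sensory neurons whose cell bodies lie beside the spinal cord. The 6 genes described are Ltf, Ngp, S100a8, S100a9 and Lcn2, which are made in quantity by neutrophils and their precursors, and Slc4a1, which is made in red cell precursors. They were chosen from a table of 17198 genes because they were among those with the deepest loss of signal over time in culture, so that loss is given below as a description, with no test. The study compared wild-type cultures (WT) with cultures labelled Dynlrb1(tm1a/+), here HET, in which 1 copy of Dynlrb1 carries the tm1a allele; Dynlrb1 encodes a light chain of the dynein motor. RNA was taken after 12, 24 or 48 h in culture. Each genotype had 3 cultures per time, which makes 6 groups and 18 cultures. Nothing but the allele and the time separates the groups in the labels, and the age and sex of the animals, the dissociation steps and any treatment that all cultures share are not given in the sources used here. The study's design text calls the 3 cultures of a group biological repeats. Cultures are named by the number in their label: culture 1, 2 or 5 for the earlier times (12 and 24 h), and culture 1, 2 or 3 for 48 h.

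In neutrophils, the secondary granules store lactoferrin, the product of Ltf, neutrophilic granule protein, the product of Ngp, and lipocalin 2, the product of Lcn2. These granule genes are transcribed while the cell matures in the bone marrow and are largely silent in the mature cell. S100a8 and S100a9 encode the calcium-binding pair that joins into calprotectin, an abundant cytosolic protein of the neutrophil. Slc4a1 encodes band 3, the anion exchanger that holds the red cell membrane to its skeleton. Ganglia are supplied by blood vessels, and mature neutrophils and red cells do not divide.

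A pair of cultures stood apart for these genes and touched most of the values below. WT culture 5 at 12 h held the lowest value of its group for 6 of 6 genes (47.8% of all genes), and HET culture 3 at 48 h held the highest for 6 of 6 (35.6%). Culture 2 of both genotypes at 12 h and WT culture 1 and HET culture 5 at 24 h were also highest for 6 of 6. HET culture 1 at 48 h was lowest for 6 of 6. The pair differed in size, with median log2 deviations from the other 2 cultures of -3.90 and 3.86, against 2.74 for the next, WT culture 2 at 12 h. HET culture 3 at 48 h was also the only culture of the 18 whose expression over all genes lay nearest to another time, with a mean Pearson r across genes of 0.9885 with the cultures of 24 h, 0.9845 with those of 12 h and 0.9741 with those of 48 h (log2 scale, other cultures only). Values are given with and without these cultures where a result rests on them.

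Promoter sequence is shown for the 4 genes whose RefSeq promoter window (GRCm38, mm10 coordinates, 250 bases before the annotated start) reaches outside the annotated gene. The set shows the letters that precede genes with one shared pattern over the cultures. Each line ends at the last base before the gene, runs 5′ to 3′ on the gene's strand, and has in capitals any match, on either strand, to TTGCNNAA (like sites of C/EBP factors, which drive granule genes), AGGAAGT (like sites of PU.1 and other ETS factors) or AGATAA (like GATA sites). The lines for Ltf (chr9:111019042-111019270, plus strand), Ngp (chr9:110419558-110419746, plus strand), S100a8 (chr3:90668821-90668977, plus strand) and S100a9 (chr3:90695722-90695971, minus strand) follow.
Ltf: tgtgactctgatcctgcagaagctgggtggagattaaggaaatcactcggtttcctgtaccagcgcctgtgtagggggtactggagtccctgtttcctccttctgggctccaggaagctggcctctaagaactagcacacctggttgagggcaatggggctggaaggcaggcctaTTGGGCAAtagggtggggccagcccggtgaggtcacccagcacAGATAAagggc
Ngp: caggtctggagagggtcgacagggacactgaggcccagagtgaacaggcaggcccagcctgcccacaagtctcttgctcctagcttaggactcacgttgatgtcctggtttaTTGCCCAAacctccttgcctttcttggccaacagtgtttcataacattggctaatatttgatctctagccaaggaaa
S100a8: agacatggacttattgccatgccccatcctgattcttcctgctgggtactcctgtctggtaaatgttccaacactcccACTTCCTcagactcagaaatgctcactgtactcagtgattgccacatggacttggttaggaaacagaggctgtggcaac
S100a9: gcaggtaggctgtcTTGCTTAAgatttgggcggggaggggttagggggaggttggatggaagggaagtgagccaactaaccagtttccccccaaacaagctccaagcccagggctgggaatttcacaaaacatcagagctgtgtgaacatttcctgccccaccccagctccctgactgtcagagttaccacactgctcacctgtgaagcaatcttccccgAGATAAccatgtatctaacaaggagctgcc
Over the full windows of 250 bases, 5 of the 6 genes had a sequence; for Lcn2 it lies within the annotated gene and is not printed, and there was none for Slc4a1. TTGCNNAA occurred in 4 of 5 windows (Ltf, Ngp, S100a9 and Lcn2), against 9.56% of 32851 promoter windows of the same length. AGGAAGT occurred in 1 of 5 (S100a8), against 7.69%, and AGATAA in 2 of 5 (Ltf and S100a9), against 9.99%. CACCC, like sites of KLF factors, occurred in 2 of 5 and in 52.0% of all windows; it is not capitalised. No matches in these windows overlap each other, and a match is a description of letters only.

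Ltf (ENSMUSG00000032496, chr9:111019271-111042767 in mm10) encodes lactoferrin, the iron-binding protein of secondary granules. Its normalized counts, which are adjusted values with nearly the same total in each culture and not numbers of reads, were 403, 671 and 49.0 in WT cultures 1, 2 and 5 at 12 h, and 415, 817 and 389 in HET cultures 1, 2 and 5. At 24 h they were 300, 65.4 and 39.6 in WT and 103, 114 and 217 in HET, in the same culture order. At 48 h they were 1.25, 3.24 and 15.3 in WT cultures 1, 2 and 3, and 10.6, 13.1 and 263 in HET cultures 1, 2 and 3. Every WT culture of 48 h was below every WT culture of 12 h, and HET culture 3 at 48 h lay above all HET cultures of 24 h while the other HET cultures of 48 h lay far below them. The group mean went from 375 ± 312 (SD, n = 3) to 135 ± 143 and then 6.61 ± 7.62 in WT, and from 540 ± 240 (SD, n = 3) to 145 ± 62.9 and then 95.6 ± 145 in HET.

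Ngp (ENSMUSG00000032484, chr9:110419747-110423012) encodes a cathelicidin-related protein of the same granules. At 12 h it had 488, 1365 and 19.8 normalized counts in WT cultures 1, 2 and 5 and 623, 1498 and 430 in the HET cultures. At 24 h it had 464, 166 and 61.4 in WT and 214, 220 and 282 in HET. At 48 h it had 11.8, 3.33 and 7.39 in WT cultures 1, 2 and 3 and 5.09, 6.09 and 262 in the HET cultures. Leaving HET culture 3 aside, the 5 other cultures of 48 h shared 1 range from 3.33 to 11.8 regardless of genotype. The 69.1-fold span between the WT cultures of 12 h was the widest within any group for the 6 genes.

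S100a8 (ENSMUSG00000056054, chr3:90668978-90670035) and S100a9 (ENSMUSG00000056071, chr3:90692632-90695721) lie on opposite strands of one stretch of chromosome 3. S100a8 had 823, 1544 and 51.9 normalized counts in WT cultures 1, 2 and 5 at 12 h, and 591, 1445 and 607 in the HET cultures. At 24 h it had 568, 221 and 92.5 in WT and 284, 285 and 913 in HET. At 48 h it had 63.2, 41.9 and 41.8 in WT cultures 1, 2 and 3 and 77.9, 83.3 and 503 in the HET cultures. WT culture 5 at 12 h lay inside the range of the WT cultures of 48 h, so those groups overlap for S100a8.

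S100a9 encodes the partner of S100a8 in calprotectin. It had 989, 2065 and 42.7 in WT cultures 1, 2 and 5 at 12 h, and 1028, 2132 and 886 in the HET cultures. At 24 h it had 1045, 291 and 176 in WT and 370, 347 and 1771 in HET. At 48 h it had 10.7, 21.9 and 44.4 in WT cultures 1, 2 and 3 and 15.2, 47.1 and 588 in the HET cultures. HET culture 5 at 24 h was above HET cultures 1 and 5 of 12 h, which makes S100a9 one of the genes with overlapping HET groups at 12 and 24 h.

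Lcn2 (ENSMUSG00000026822, chr2:32384633-32388252, minus strand) encodes lipocalin 2, which binds bacterial siderophores and can also be induced in other injured or inflamed cells. It had 247, 607 and 39.7 normalized counts in WT cultures 1, 2 and 5 at 12 h and 210, 626 and 261 in the HET cultures. At 24 h it had 191, 118 and 51.1 in WT and 97.9, 138 and 329 in HET. At 48 h it had 11.2, 6.64 and 9.13 in WT cultures 1, 2 and 3 and 6.88, 14.9 and 103 in the HET cultures. WT and HET overlapped at each time.

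Slc4a1 (ENSMUSG00000006574, chr11:102348824-102366203, minus strand) was the only red cell gene of the 6. It had 224, 461 and 85.6 normalized counts in WT cultures 1, 2 and 5 at 12 h and 484, 711 and 324 in the HET cultures. At 24 h it had 160, 126 and 130 in WT and 124, 182 and 282 in HET. At 48 h it had 4.81, 6.42 and 9.16 in WT cultures 1, 2 and 3 and 9.27, 33.3 and 190 in the HET cultures. The WT cultures of 24 h were close to one another for this gene, with a coefficient of variation of 13.5%, while it was 106% for Ltf in the same cultures. The gene's HET cultures of 48 h all lay above the WT cultures of 48 h, the lowest of them by a small margin.

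**Figure D1:**
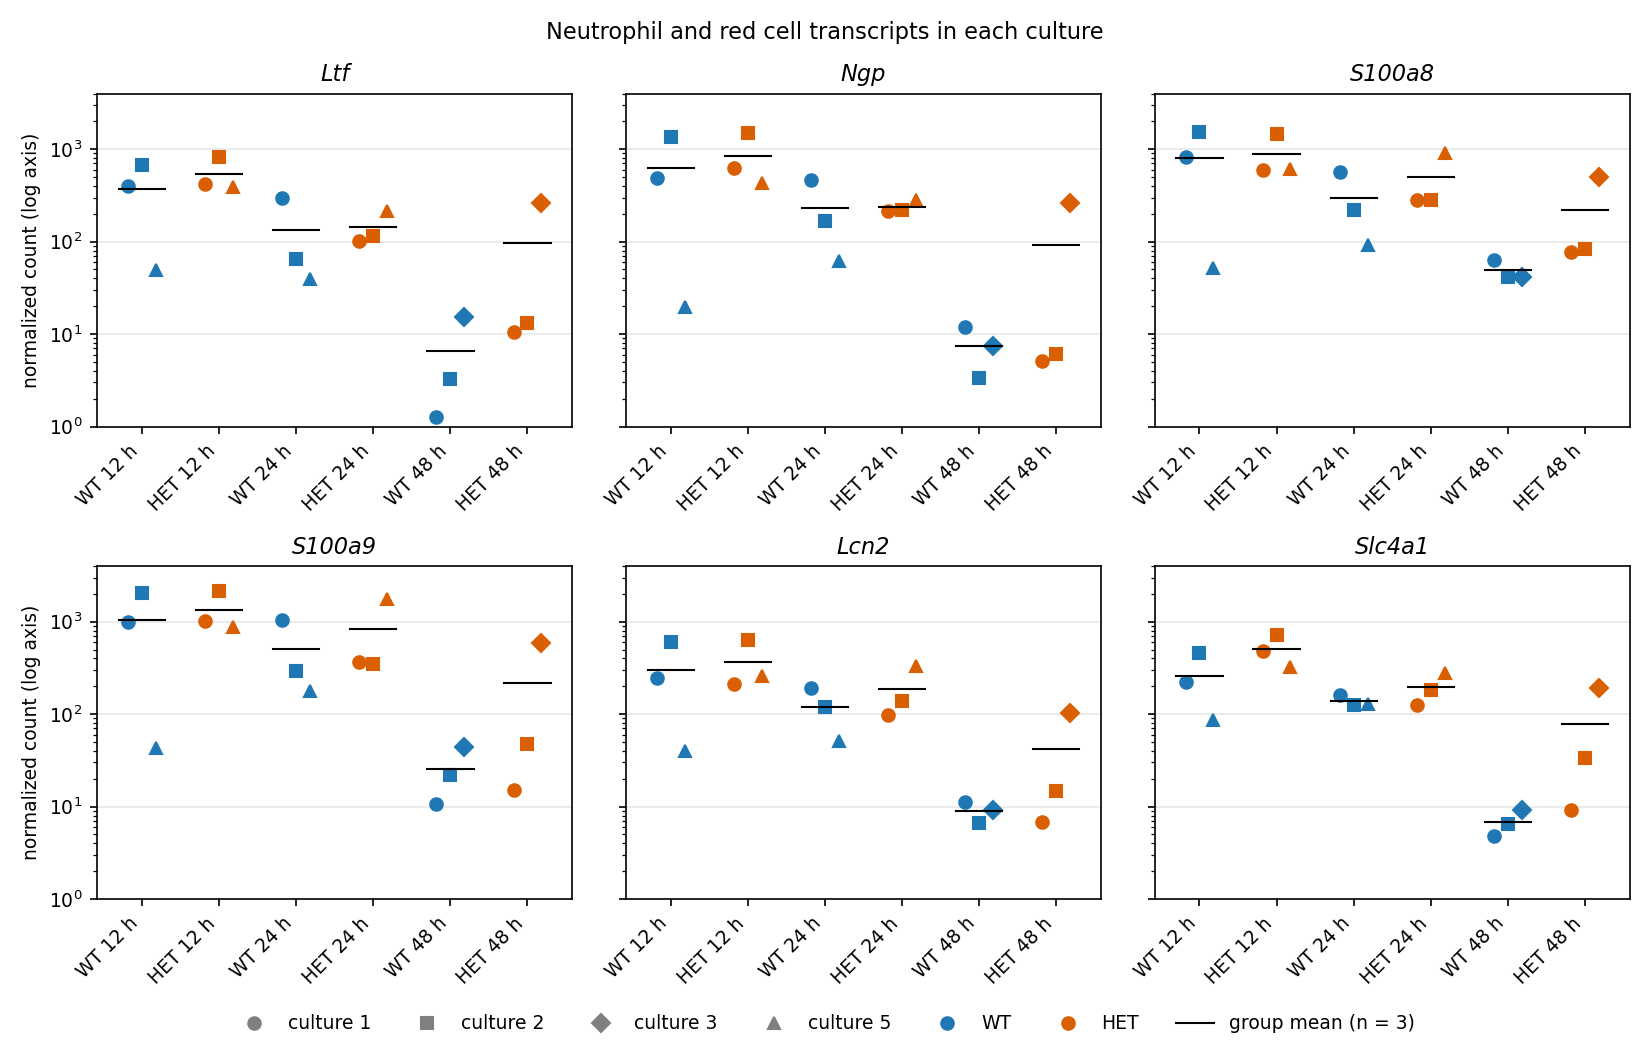
Normalized counts (log axis) of the 6 genes in each of the 18 cultures, by genotype and time; the marker shape gives the culture number and the bar the group mean (n = 3). WT culture 5 at 12 h (blue triangle) and HET culture 3 at 48 h (orange diamond) lie far from the other cultures of their groups.

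Per length of transcript, in FPKM (fragments scaled by transcript length and library total), the order of the genes at 12 h was led by the calprotectin pair. S100a8 had 49.5 ± 45.9 FPKM (SD, n = 3) in WT and 54.1 ± 30.0 in HET at 12 h, and S100a9 had 47.7 ± 46.8 and 62.3 ± 31.5. In HET, Ngp followed with 17.6 ± 11.8, Lcn2 with 10.3 ± 6.41, Ltf with 4.75 ± 2.11 and Slc4a1 with 2.68 ± 1.03, and the order below the pair was the same in WT. Neighbours in that order in HET differed by less than the larger of their SDs, except S100a8 and Ngp. At 48 h in WT the highest level was that of S100a8, 3.01 ± 0.759 FPKM, and the lowest that of Slc4a1, 0.0360 ± 0.0117 FPKM.

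Group means at 48 h were below those at 12 h for each of the 6 genes in both genotypes. On the log2(normalized count + 1) scale, the WT groups of 48 and 12 h differed by -5.47 for Ltf, -4.95 for Ngp, -4.78 for Slc4a1, -4.28 for S100a9, -4.22 for Lcn2 and -3.05 for S100a8. In HET the differences were -3.86 for Ltf, -5.04 for Ngp, -3.57 for Slc4a1, -4.02 for S100a9, -3.79 for Lcn2 and -2.43 for S100a8. S100a8 thus had the smallest difference of the 6 in both genotypes. Turned back from this log2 scale into shares, these differences leave between 2.26% (Ltf) and 12.1% (S100a8) of the 12 h level in WT. In HET they leave between 3.04% (Ngp) and 18.6% (S100a8). These are not ratios of the group means of normalized counts, in which single high cultures weigh more. For Ngp in HET those means were 850 at 12 h and 91.0 at 48 h. Without WT culture 5 at 12 h the WT differences ran from -4.52 (S100a8) to -6.72 (Ngp), and without HET culture 3 at 48 h the HET differences ran from -3.30 (S100a8) to -6.81 (Ngp).

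Between 12 and 24 h the differences were smaller and depended on which cultures were counted. In WT they ran from -0.24 (S100a9) to -1.36 (Ltf), and without WT culture 5 at 12 h from -1.22 (Slc4a1) to -2.48 (Ltf). In HET they ran from -0.94 (S100a8) to -1.89 (Ltf). By culture, the WT groups of 48 and 12 h did not overlap for 4 of 6 genes (all but S100a8 and S100a9), where 20.7% of all genes were lower in that way. The HET groups of 48 and 12 h did not overlap for 6 of 6 genes (8.12% of all genes), and those of 24 and 12 h for 3 of 6 (Ltf, Ngp and Slc4a1; 13% of all genes). The WT groups of 24 and 12 h overlapped for all 6 (8.94% of all genes were lower without overlap). The WT groups of 48 and 24 h did not overlap for 6 of 6 (18.4% of all genes), and HET overlapped for all 6 through culture 3 (8.08%). Because the change with time chose the genes, these counts describe the choice. In RNA from whole cultures, fewer cells of a type and less RNA per cell cannot be told apart.

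The cultures that stood apart did so to different degrees for different genes. WT culture 5 at 12 h held 2.13% of the mean of the other 2 cultures of its group for Ngp, 2.80% for S100a9, 4.38% for S100a8, 9.12% for Ltf, 9.31% for Lcn2 and 25.0% for Slc4a1. The red cell gene was thus less depleted there than the neutrophil genes, and the summed normalized counts of the 5 neutrophil genes were 2.37 times that of Slc4a1, while they were 13.2 and 13.6 times in WT cultures 1 and 2. HET culture 3 at 48 h held 46.8 times the mean of the other 2 cultures for Ngp, 22.2 times for Ltf, 18.9 times for S100a9, 9.46 times for Lcn2, 8.94 times for Slc4a1 and 6.24 times for S100a8.

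Less extreme departures were of the same kind. Culture 2 had the highest value of its group for 6 of 6 genes at 12 h in both genotypes, with 2.97 (Ltf) to 5.37 times (Ngp) the mean of the other 2 in WT and 1.76 (Slc4a1) to 2.85 times (Ngp) in HET. WT culture 1 at 24 h had 5.71 times for Ltf and 1.25 times for Slc4a1. HET culture 5 at 24 h had 4.94 times for S100a9 and 1.30 times for Ngp, so there the calprotectin gene and the granule gene differed in how far they departed. In the WT cultures of 48 h no culture led for all genes: culture 1 was highest for Ngp, S100a8 and Lcn2 and culture 3 for Ltf, S100a9 and Slc4a1.

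**Figure D2:**
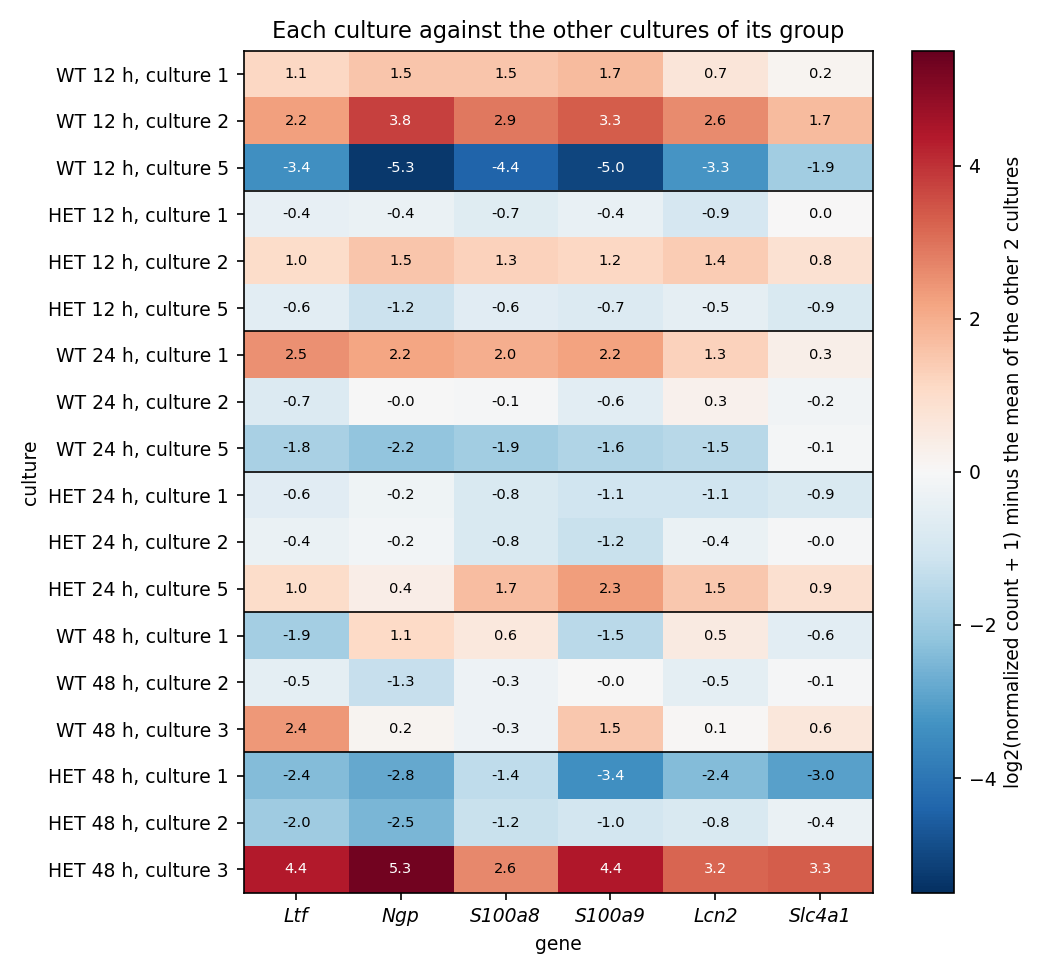
Difference between each culture and the mean of the other 2 cultures of its group, on the log2(normalized count + 1) scale, for the 6 genes (columns) and 18 cultures (rows); red is higher and blue lower. Most rows have 1 colour across the genes, with the deepest blue in WT culture 5 at 12 h and the deepest red in HET culture 3 at 48 h.

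The same cultures were at the same end for other blood cell genes. A list of 48 further neutrophil genes had 39 in the table, and WT culture 5 at 12 h was the lowest of its group for 31 of the 39, where it was lowest for 47.8% of all genes. HET culture 3 at 48 h was the highest for 30 of the 39, against 35.6% of all genes. Of a list of 40 further red cell genes, 27 were in the table; WT culture 5 at 12 h was lowest for 21 of them and HET culture 3 at 48 h highest for 14. Culture 2 at 12 h was highest for 30 of the 39 neutrophil genes in WT (28.1% of all genes) and for 34 of 39 in HET (32.2%).

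The 6 genes moved closely together over the cultures. Across the 18 cultures, Pearson's r between pairs of them on the log2 scale was 0.875 (S100a8 and Slc4a1) to 0.979 (Ngp and Lcn2) over 15 pairs. After the group means were taken out it was 0.758 (S100a8 and Slc4a1) to 0.955 (S100a8 and Lcn2). These points share the library, the scaling and the cultures that stand apart, so the values are a description.

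Ratios between genes were less uniform at 48 h, when counts were low. S100a8 over S100a9 in FPKM had a median of 1.11 in WT and 0.901 in HET at 12 h, 0.723 and 1.02 at 24 h, and 2.54 and 2.35 at 48 h, where single cultures reached 7.86 in WT and 6.82 in HET. HET culture 3, the culture with high levels, had 1.14, the lowest of the HET cultures of 48 h. Ngp over Ltf had a median of 2.86 in WT and 3.54 in HET at 12 h and 2.43 and 1.13 at 48 h.

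Among genes with a mean of at least 20 normalized counts, the 5 with the pattern most like each of the 6 were found, and many of them stood in the further lists of blood cell genes. Over the 18 cultures, the closest to Ltf was Cd177 (Pearson r 0.976), to Ngp Camp (0.974), to S100a8 Mmp9 (0.970), to S100a9 Retnlg (0.979), to Lcn2 Mmp9 (0.960) and to Slc4a1 Alas2 (0.991). Retnlg and Mmp9 were each among the nearest 5 genes for 4 of the 6, and Cd177 and Chil3 for 3. On deviations from the group means the closest were Cd177 to Ltf (0.953), Pglyrp1 to Ngp (0.964), Mmp8 to S100a8 (0.964), Mmp9 to S100a9 (0.969), Cd52 to Lcn2 (0.959) and Alas2 to Slc4a1 (0.977). Genes outside both lists were also close, such as Pnrc1 to Ltf (0.956) and Strn4 to Slc4a1 (0.972) over all cultures.

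The further neutrophil genes cover granule proteins, proteases, receptors and enzymes of the oxidative burst, and were tested with limma on the log2 values, Benjamini-Hochberg adjusted over all 17198 genes at a threshold of 0.05. In WT at 48 h against 12 h, 22 of 39 fell, 4 rose and 13 did not pass, where 17.1% of all genes fell and 30% rose. The median log2 difference over the list was -1.86, against 0.11 over all genes. Of the 25 that are not also made by many other cells, 16 fell and 1 rose. In HET, 7 of 39 fell and 2 rose (3.62% of all genes fell and 10.6% rose), with a median of -1.25 against 0.10 over all genes, and without WT culture 5 at 12 h and HET culture 3 at 48 h the counts were 27 lower and 3 higher in WT and 20 lower and 3 higher in HET. The former was the lowest of its group for 31 of the 39 and the latter the highest for 30. Leaving them out therefore deepens the fall of most of these genes. Without WT culture 2 at 12 h, 15 passed in WT in either direction and without WT culture 2 at 48 h 17 did, and without HET culture 2 at 12 h or HET culture 1 or 2 at 48 h 0 passed in HET with limma. Without HET culture 1 at 12 h, 2 passed in HET. The share of all genes was not counted for the fits with cultures left out.

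Camp, the cathelicidin of secondary granules, was the gene closest in pattern to Ngp over the 18 cultures. Not all genes of the list moved so far, and 13 of the 39 did not pass in WT at 48 h. Among those were Mpo, Elane and Olfm4, with differences of -0.64, -1.37 and -1.39 (limma adjusted p 0.557, 0.172 and 0.112). Camp had 66.0, 186 and 4.44 normalized counts in WT cultures 1, 2 and 5 at 12 h and 5.60, 2.01 and 6.27 in WT cultures 1, 2 and 3 at 48 h. In HET it had 52.3, 227 and 61.6 at 12 h and 3.12, 1.40 and 35.0 at 48 h. Camp fell in both genotypes, with a log2 difference of -2.96 (SE 1.05, limma adjusted p 0.0285) in WT and -3.69 (SE 1.05, limma adjusted p 0.0312) in HET. WT culture 5 at 12 h and HET culture 3 at 48 h were again the low and the high culture of their groups. Camp, Cd177 and Retnlg were the genes closest in pattern to Ngp, Ltf and S100a9, which were chosen by their fall. The p-values of these genes are therefore no independent support for a fall.

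Cd177, a surface protein of neutrophils, fell, with a log2 difference of -3.83 (limma adjusted p 0.00172) in WT and -3.72 (limma adjusted p 0.0163) in HET. Retnlg, a resistin-like secreted protein, fell by 4.64 (SE 1.18, limma adjusted p 0.00426) in WT, and its HET difference of -3.26 did not pass. It was the one gene of the 8 with the highest mean FPKM in this list that fell at 48 h. Of the other 7, Serpinb1a, a protease inhibitor, rose by 2.52 in WT and 1.29 in HET (limma adjusted p 9.35e-05 and 0.0331). Anxa1, annexin A1, rose by 2.34 and 1.43 (limma adjusted p 1.84e-04 and 0.0256). Mmp25, a membrane-bound protease, and Lyz2, a lysozyme that macrophages also make, rose in WT only by this threshold, by 0.68 and 1.13 (limma adjusted p 0.0147 and 0.0276); whether the genotypes differ in this was not tested. Ceacam10, Clec4d and Ncf1, a subunit of the phagocyte oxidase, did not pass at 48 h, with differences of -0.15, -0.44 and -1.39 in WT. Of these 8 genes, 1 thus fell and 4 rose in WT, and 0 fell and 2 rose in HET. The summed FPKM of the 39 was 115 to 208 in the WT cultures of 12 h and 362 to 522 in those of 48 h; in HET it was 145 to 165 and 140 to 300.0, which overlap, with culture 3 lowest at 48 h. Serpinb1a alone ranged from 34.3 to 364 FPKM over the 18 cultures.

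At 24 h against 12 h in WT, 0 of the 39 passed with limma (4 at an unadjusted p under 0.05, as 21.4% of all genes had), where 0.657% of all genes fell and 2.96% rose. In HET, 2 fell, namely Cebpe, a transcription factor of maturing granulocytes (-1.83, limma adjusted p 0.0215), and Ceacam10 (-1.77, limma adjusted p 0.0323), where 5.76% of all genes fell and 13.1% rose. Without HET culture 2 at 12 h or HET culture 1 at 24 h, 0 passed, and 1 did without HET culture 1 or 5 at 12 h. The share of all genes was not counted for those fits.

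The further red cell genes moved in both directions. In WT at 48 h against 12 h, 6 of 27 fell, 5 rose and 16 did not pass, where 17.1% of all genes fell and 30% rose, with a median log2 difference of -0.21 against 0.11 over all genes. Of the 14 that few other cells make, 5 fell (among them Alas2, Nfe2, Hemgn and Ermap) and 1 rose (Rhd), with a median of -0.88. Alas2, the first enzyme of haem synthesis in red cell precursors, had 155, 504 and 75.9 normalized counts in WT cultures 1, 2 and 5 at 12 h and 7.22, 6.57 and 15.7 in WT cultures 1, 2 and 3 at 48 h, and fell by 4.17 (SE 0.80, limma adjusted p 5.91e-04). Alas2 in HET had 394, 464 and 234 at 12 h and 9.84, 29.0 and 220 at 48 h, a log2 difference of -3.08 (SE 0.80, limma adjusted p 0.0233). As with Slc4a1, HET culture 3 at 48 h was far above the other HET cultures of its time. Alas2 was the gene closest in pattern to Slc4a1, which was chosen by its fall, so its p-values are no independent support for a fall.

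In HET at 48 h, 4 of 27 fell (among them Alas2, Hemgn and Ank1) and 1 rose (Rhd), where 3.62% of all genes fell and 10.6% rose. Of the 14 that few other cells make, 3 fell and 1 rose. Without WT culture 5 at 12 h and HET culture 3 at 48 h, 10 fell and 3 rose in WT, and 8 fell and 3 rose in HET. In HET 0 passed without HET culture 2 at 12 h or HET culture 1 or 2 at 48 h, and 2 without HET culture 1 at 12 h. The share of all genes was not counted for the fits of this list with cultures left out. At 24 h in HET, 5 fell (among them Hemgn, Ermap and Ank1) and Slc2a1 rose (5.76% of all genes fell and 13.1% rose), and 1 to 4 of the list passed with any 1 culture left out. In WT at 24 h 0 passed with limma, where 0.657% of all genes fell and 2.96% rose. An unadjusted p under 0.05 was found there for 4 of the list, against 21.4% of all genes.

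The 8 red cell genes with the highest mean FPKM are all made by other cells too. Of these, Ank1, an ankyrin of the membrane skeleton, fell, with a log2 difference of -1.32 in WT and -0.59 in HET (limma adjusted p 3.49e-05 and 0.0287). Car2, a carbonic anhydrase, Tfrc, the transferrin receptor, and Fech, the last enzyme of haem synthesis, rose in WT by 1.19, 0.92 and 0.36. Tmod1, Add2, Slc2a1 and Tmcc2 did not pass at 48 h in either genotype. The haemoglobin genes were not analysed here.

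**Figure D3:**
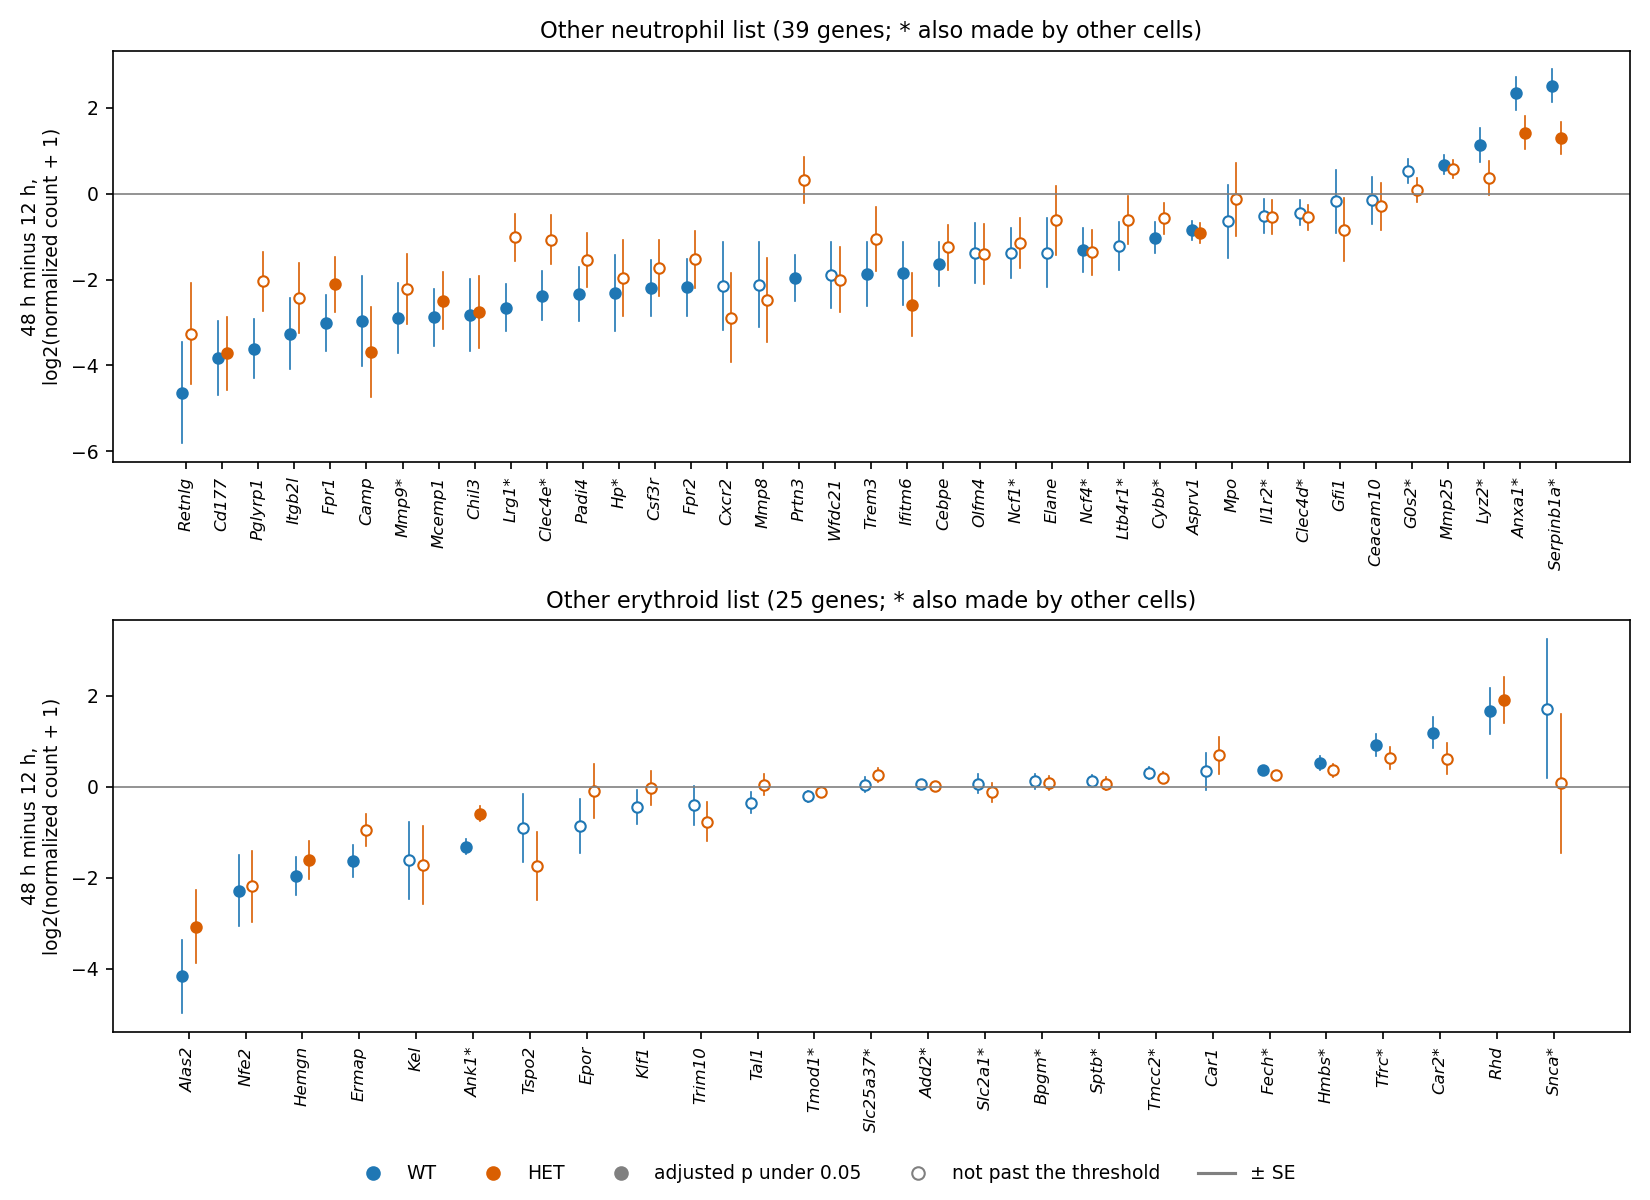
Difference between 48 and 12 h on the log2(normalized count + 1) scale, with its SE, for the 39 further neutrophil genes (top) and 25 of the 27 further red cell genes (bottom) in WT and HET; filled points passed the limma threshold. Points below 0 are lower at 48 h: 22 neutrophil genes fell and 4 rose in WT.

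Sums over markers of other cells also moved with time. Summed over 8 markers of Schwann cells and satellite glia, FPKM was 558 to 818 in the WT cultures of 12 h and 238 to 285 in those of 48 h, and 555 to 846 and 257 to 353 in HET. For 7 endothelial markers it was 88.8 to 120 and 52.3 to 72.8 in WT, and 63.5 to 105 and 57.5 to 82.5 in HET. The sum of the 8 macrophage markers in the table went the other way. In WT it was 19.5 to 26.4 at 12 h and 46.3 to 88.6 at 48 h. In HET it was 15.9 to 24.6 and 27.2 to 43.4. Cd68 alone ranged from 7.82 to 68.8 FPKM over all cultures, and C1qa, the next highest of these markers, reached 7.81. The rise of this sum therefore does not show that the macrophage markers rose as a set. The 8 neuronal markers ran from 5540 to 6739 at 12 h and 5975 to 6511 at 48 h in WT, and from 6654 to 7852 and 6515 to 6604 in HET. For 7 monocyte markers the sum was 14.1 to 19.2 at 12 h and 28.0 to 47.1 at 48 h in WT. In HET it was 8.68 to 21.1 and 13.7 to 36.8, which overlap. Fn1 alone reached 39.3 FPKM. The sum of 3 T and NK cell markers was at most 0.900 in any culture, and that of 2 mast cell and basophil markers at most 0.689. For 5 platelet markers the sum was 9.10 to 11.9 at 12 h and 5.44 to 6.81 at 48 h in WT, for 6 fibroblast markers 39.9 to 88.2 and 107 to 154, and for 7 B lineage markers 36.5 to 45.3 and 48.0 to 56.3. The table holds no value of 0 for any gene, so no marker was at 0. The part of these shifts in the levels of the 6 genes was not tested.

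Genotype did not choose the 6 genes, so WT and HET were compared with a test. Dynlrb1 itself, the check of the labels, had 6195 ± 758, 5786 ± 603 and 6015 ± 348 normalized counts (SD, n = 3) in WT at 12, 24 and 48 h and 3599 ± 426, 3204 ± 557 and 3346 ± 123 in HET, with every HET culture below every WT culture. At 12 h, 0 of the 6 genes passed (limma, Benjamini-Hochberg; 0.00581% of all genes passed), and 0 had an unadjusted p under 0.05 (8.41% of all genes had). WT and HET overlapped for all 6, where 7.07% of all genes were higher and 8% lower without overlap. The differences, HET minus WT, ran from 0.83 (Lcn2; 95% interval -1.08 to 2.74) to 1.62 (Ngp; -1.23 to 4.47). They rest on WT culture 5: without it they were -0.03 for Ltf, -0.15 for Ngp, -0.49 for S100a8, -0.20 for S100a9, -0.25 for Lcn2 and 0.58 for Slc4a1. At 24 h, 0 of 6 passed (limma; 0.00581% of all genes passed) and 0 had an unadjusted p under 0.05 (1.15% of all genes had). All groups overlapped, where 2.81% of all genes were higher and 2.79% lower without overlap, and the differences ran from 0.42 (Slc4a1; -1.15 to 2.00) to 0.89 (S100a8; -1.20 to 2.97). These intervals leave room for large differences in either direction.

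At 48 h all 6 genes had a higher mean in HET. The differences were 2.70 for Ltf (SE 1.11, limma adjusted p 0.169), 2.42 for Slc4a1 (SE 0.75, limma adjusted p 0.0838), 1.75 for S100a9, 1.61 for S100a8, 1.54 for Ngp and 1.26 for Lcn2. With limma 0 of 6 passed, as 0% of all genes did, and 2 of 6 (Ltf and Slc4a1) had an unadjusted p under 0.05, as 22% of all genes did. Dynlrb1, though lower in every HET culture, therefore did not pass at 48 h either, so a lack of calls there does not show a lack of difference. S100a8 and Slc4a1 were higher in HET without overlap, where 9.57% of all genes were. Same-numbered cultures of 48 h deviated together over all genes, and with the replicate number as a block Ltf (limma adjusted p 0.0240) and Slc4a1 (limma adjusted p 0.00929) passed, while 5.04% of all genes passed as higher in HET. The blocked fit also paired the cultures of 12 and 24 h and took its spread from all times together. It had 6 residual degrees of freedom in place of 12. Without HET culture 3 the differences were 1.25 for Ltf, 1.30 for Slc4a1, 0.73 for S100a8, 0.28 for S100a9, 0.19 for Lcn2 and -0.24 for Ngp, and 0 of 6 passed with limma (adjusted p from 0.405 to 0.964). With the block and without HET culture 3, WT culture 3 of 48 h had no partner and added nothing to the difference. The differences then rest on cultures 1 and 2 of each genotype. They were 2.05 for Ltf (SE 0.81, limma adjusted p 0.193), 1.51 for Slc4a1 (SE 0.42, limma adjusted p 0.0692) and -0.18 for Ngp. In that fit 0 of 6 passed, where 3.86% of all genes did. Without HET culture 1 at 48 h and with no block, Slc4a1 had 3.41 and passed (limma adjusted p 0.0387). The share of all genes passing in that fit was not counted, so whether the call is particular to Slc4a1 is unknown.

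Among the further red cell genes at 48 h, 0 of 27 passed between genotypes with limma, and 4 had an unadjusted p under 0.05, against 22% of all genes. With the block Alas2 was higher in HET by 2.04 (limma adjusted p 0.0220), Ank1 higher by 0.49 and Car2 lower (-0.94), where 5.04% of all genes were called higher and 7.29% lower. Without HET culture 3 the Alas2 difference was 0.83 (1.19 with the block, limma adjusted p 0.195). That of Ank1 with the block was 0.37 (limma adjusted p 0.113), while Car2 still passed with the block (-1.06, limma adjusted p 0.0183). The blocked differences without HET culture 3 rest on cultures 1 and 2 of each genotype, since WT culture 3 had no partner. Of the 39 neutrophil genes 0 passed (6 at an unadjusted p under 0.05, against 22% of all genes), and with the block Serpinb1a and Anxa1 were lower in HET (-1.50 and -1.19). Without HET culture 3, and so from cultures 1 and 2 only, Serpinb1a still passed with the block (-1.01, limma adjusted p 0.0119). Anxa1 did not (-0.96, limma adjusted p 0.173). HET culture 3 had the lowest Serpinb1a of the HET cultures of 48 h, 3385 normalized counts against 14836 and 12985.

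The authors' deposited table gives its own comparison at 48 h, in which 4 of the 6 genes had a false discovery rate under 0.05. By the authors' deposited table, the log2 fold change of HET over WT was 3.83 for Ltf (FDR 0.0100), 3.58 for Ngp (FDR 0.0324), 3.07 for S100a9 (FDR 0.0472) and 3.49 for Slc4a1 (FDR 4.87e-04), and 2.18 for S100a8 and 2.19 for Lcn2 (FDR 0.0814 and 0.0838). The authors' deposited table has 2.7% of all genes higher in HET at that FDR. That comparison was not rerun without HET culture 3. This culture held 46.8 times the mean of the other 2 HET cultures of 48 h for Ngp and 22.2 times for Ltf. For S100a9 it held 18.9 times and for Slc4a1 8.94 times that mean. In the limma fit made here, the differences without HET culture 3 were 1.25 for Ltf, -0.24 for Ngp, 0.28 for S100a9 and 1.30 for Slc4a1.

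Averaged over the 3 times, 0 of 6 genes passed with limma, where 0.0174% of all genes passed, and 2 (Ltf and Slc4a1) had an unadjusted p under 0.05, as 13.5% of all genes did. The differences ran from 0.91 (Lcn2) to 1.45 (Ltf), and Slc4a1 had 1.35 (SE 0.43, limma adjusted p 0.310). With the replicate block Slc4a1 passed (limma adjusted p 0.0276), although the numbers were taken to pair cultures at 48 h only. The share of all genes passing in that blocked fit was not counted. Without WT culture 5 at 12 h and HET culture 3 at 48 h the averages were 0.77 for Slc4a1 (limma adjusted p 0.370), 0.59 for Ltf, 0.38 for S100a8, 0.26 for S100a9, 0.19 for Lcn2 and 0.036 for Ngp. Leaving out only the former gave 0.63 for Ngp and 0.55 for Lcn2, and leaving out only the latter gave 0.62 and 0.55. The test of the difference between the genotypes' changes with time was not made.

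**Figure D4:**
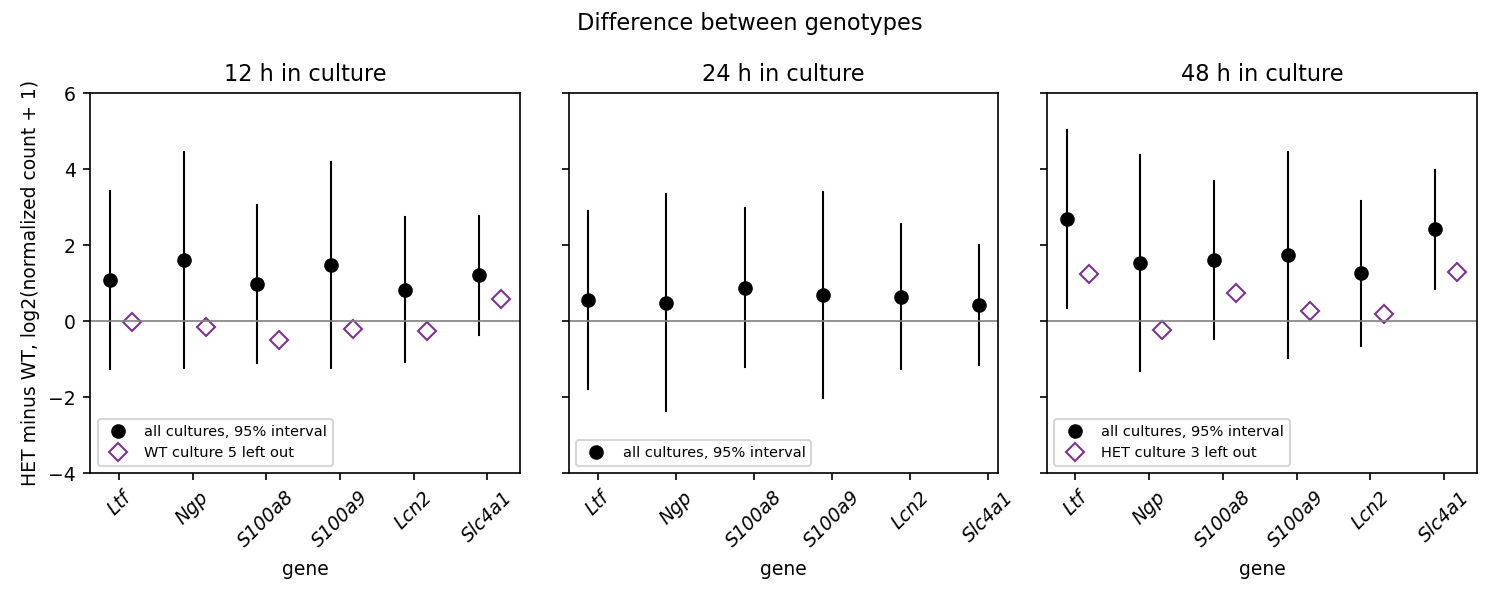
Difference between HET and WT at each time for the 6 genes on the log2(normalized count + 1) scale; filled points are all cultures with 95% limma intervals, open diamonds the value without WT culture 5 (12 h) or HET culture 3 (48 h). Leaving out that 1 culture takes the 12 h differences of 5 genes to -0.03 or below and that of Ngp at 48 h to -0.24.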

How the data were processed

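RNA of 18 cultures was sequenced by the study, and 1 table of the whole series was used, with 17198 genes, 16529 of them with an Ensembl identifier. Per the submitters' processing notes, CASAVA 1.8.2, edgeR and the mm10 build were used; their roles, the aligner and the counting method are not given in the sources used here. Per the file headers, the authors deposited normalized counts (a signal that is not a raw count: totals of 41509705 to 41509874 per culture, no 0 and no whole number), a further adjusted signal (totals of 39465712 to 44213485), FPKM, their own log2 fold changes with p-values and FDR, and a rank score, which was not used here. The number of reads behind a value is therefore unknown, and low values such as those of 48 h have an unknown counting error. The 18 normalized columns span 15 of the 17 dimensions that 18 independent cultures would, so 2 directions of variation between cultures are missing from them, for which no header gives a reason.

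Here log2(normalized count + 1) was fitted with limma 3.58.1 in R 4.3.3, with 1 coefficient for each of the 6 groups over 18 cultures (12 residual degrees of freedom, prior 4.97), a mean trend, and Benjamini-Hochberg adjustment over all genes at a threshold of 0.05. A minimum mean of 1 removed 0 genes. A log2 difference on this scale understates changes of low genes. The script was tested on simulated data. Genotype and other blood cell genes were tested; the 6 genes' change with time was not, since it chose them. The members and lists were chosen with earlier results of these data known. Named besides the 6 genes were the 8 genes of each list with the highest mean FPKM, and the 5 nearest in pattern to each of the 6; other list genes were named after their values were seen. No document states separate animals beyond the words biological repeats, so p-values measure the spread between these cultures.

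The replicate number was tried as a block. Same-numbered WT and HET cultures deviated together at 48 h (r of deviations over all genes 0.209 to 0.461 for 3 pairs), so the number was taken to pair them there; at 12 h r was 0.0318 to 0.188 and at 24 h -0.207 to 0.258, which was not taken as pairing. Promoters are RefSeq windows, and gene positions come from the reference annotation of mm10. Of the 27 further red cell genes, 2 are not reported here by name and not drawn; the counts include them.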

Additional observations from a re-analysis of the deposited data

How the results depend on the processing

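In all, 36 results were recomputed under other settings, which gave 631 values; 566 of these had the sign of the reported value and lay on its side of the threshold (for counts, within 1.5 times). Counts below are list genes past the limma threshold in either direction. For the comparisons over time, the share of all genes under these settings was not counted. Nor was it for the genotype average with the block or for the 48 h genotype fit without HET culture 1. With a pseudocount of 0.1, 3 red cell genes in place of 6 passed at 24 h in HET, and adding the 2 missing directions as covariates also gave 3 there and 2 in WT. With quantile normalization 1 neutrophil and 1 red cell gene passed at 24 h in WT, where 0 did. Fitting only the groups compared gave 1 and 2 there, 5 neutrophil genes at 24 h in HET in place of 2, and 0 and 0 at 48 h in HET in place of 9 and 5. The replicate block (12 and 24 h share all numbers, 12 and 48 h only 2) gave 2 and 2 at 24 h in WT, 7 neutrophil genes at 24 h in HET, and 18 and 13 at 48 h in HET; it brought 2 of the 6 genes past the threshold between genotypes at 48 h and 1 (Slc4a1, limma adjusted p 0.0276) averaged over time, and changed no other call on the 6 genes. Without WT culture 5 at 12 h and HET culture 3 at 48 h together, chosen after seeing the data as were the 2 covariates and the block without culture 3, 3 neutrophil genes passed at 24 h in WT, 7 at 24 h in HET, and 23 and 11 at 48 h in HET.

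Leaving out 1 culture at a time, the count of the 6 genes past the threshold was 0 at 12 h, at 24 h and averaged, and 0 to 1 at 48 h (1 without HET culture 1). The list counts at 48 h in WT ran from 15 to 30 neutrophil genes (15 without WT culture 2 at 12 h, 17 without WT culture 2 at 48 h) and 8 to 11 red cell genes. At 48 h in HET they ran from 0 to 19 and from 0 to 11, with 0 of both without HET culture 2 at 12 h or HET culture 1 or 2 at 48 h, 2 of both without HET culture 1 at 12 h, and 19 and 11 without HET culture 3. At 24 h in HET they ran from 0 to 2 and from 1 to 4, and at 24 h in WT they were 0 and 0. So every list call at 48 h in HET was lost without 1 of these cultures.

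Signs of genotype differences, none past the threshold, turned as follows. At 12 h, Ltf (-0.031), Ngp (-0.15), S100a8 (-0.49), S100a9 (-0.20) and Lcn2 (-0.25) turned without WT culture 5, alone or with HET culture 3 of 48 h left out too. At 24 h, Ltf (-0.036) and Ngp (-0.23) turned without WT culture 5, S100a9 (-0.073) without HET culture 5, and Ngp (-0.078) and Slc4a1 (-0.13) with the 2 covariates. At 48 h, Ngp turned without HET culture 3 (-0.24, and -0.18 with the replicate block, which then rests on cultures 1 and 2). Over all single cultures left out, differences ran from -0.031 to 1.84 for Ltf, -0.15 to 2.87 for Ngp, -0.49 to 1.95 for S100a8, -0.20 to 2.59 for S100a9 and -0.25 to 1.70 for Lcn2 at 12 h, from -0.036 to 1.41 for Ltf, -0.23 to 1.22 for Ngp and -0.073 to 1.43 for S100a9 at 24 h, and from -0.24 to 2.48 for Ngp at 48 h. The cause of these turns was not tested. Count-based tests were not run, since the values are not counts, and dropping the filter changed nothing because it removed 0 genes.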
